A study of Mus musculus with 6 samples.

Results

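A small group of cells in the skin of mouse embryos at embryonic day (E) 13.5 carried the transcripts of cartilage. They were chosen by a rule on unique molecular identifiers (UMIs), the tags that count single captured transcripts. A cell was kept if it held 500 genes or more and if mitochondrial UMIs made up no more than 10% of its total. A kept cell was called a chondrocyte if it held at least 10 UMIs of Col2a1, at least 3 of Col9a1, Acan, Matn1 and Sox9 together, and at most 3 of Krt5 and Krt14 together. Of 19618 kept cells in the 3 E13.5 libraries, 94 met the rule, and the whole series of 6 libraries held 40653 kept cells. They came to 30 of 6970 cells in control replicate 1, 3 of 6028 in control replicate 2 and 61 of 6620 in the loss-of-function (LOF) library.

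Dorsolateral and flank skin of 3 to 4 embryos was pooled for each library, dissociated with trypsin, sorted with the dye DAPI and profiled by droplet sequencing of transcript 3′ ends. The control embryos, with 2 libraries at E13.5, were CD1 mice labelled WT. The LOF embryos, with 1 library at E13.5, were PDGFRαCreER(Lo);β-catfl/fl;mTmG. They carried floxed alleles of β-catenin, the protein that takes canonical Wnt signals to the nucleus, and CreER, a Cre recombinase fused to a part of the estrogen receptor that tamoxifen switches on. CreER was driven from Pdgfra, a receptor gene of mesenchyme, so it can act only where that promoter was active. The mTmG reporter changes from membrane Tomato to membrane GFP after Cre acts. Tamoxifen was given to the LOF mice at E11.5 and none is recorded for the controls, so genotype, mouse line and drug cannot be told apart. The embryos of a pool cannot be told apart either, and the library was the unit of replication. In sums over cells, fewer cells of a type and less RNA per cell cannot be told apart.

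Chondrocytes arise from condensing mesenchyme, where the transcription factor SOX9 and its partners SOX5 and SOX6 switch on a matrix of type II, IX and XI collagen, proteoglycans and matrilins. In a growth plate they first divide, then stop, enlarge and express type X collagen, under the control of Indian hedgehog and parathyroid hormone-related protein. Canonical Wnt signals are known to hold back chondrocyte formation in mesenchyme that can also form bone or dermis.

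Because the rule asks for a fixed number of Col2a1 UMIs, it favours deep cells. The chondrocytes held more UMIs per cell than the dermal cells. Their medians were 16135, 10649 and 16560 UMIs per cell in control replicate 1, control replicate 2 and LOF, against 10233, 8102.5 and 10658 in the dermal cells of the same libraries. All values below follow this order of the libraries. Summed over chondrocytes the libraries gave 550285, 27983 and 1083265 UMIs. Levels are counts per 1000000 UMIs of these sums (CPM), and 3 UMIs, the limit that a count of 0 allows, equal 5.45, 107.2 and 2.77 CPM, which covers counting error only. In control replicate 2, 1 UMI equals 35.7 CPM and 2 UMIs equal 71.5 CPM, so even 1 UMI there exceeds many dermal levels. Between 45 and 103 barcodes were shared by pairs of libraries, but 0 of them were chondrocytes of both. By markers of another cell type or by a depth over 2 times the median, 7, 0 and 12 chondrocytes were possible doublets.

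The reporter transcripts did not follow the labels of the control libraries. eGFP, the reporter row of the matrices, was at 3.06, 123 and 348 CPM in dermal cells, so the second control library held a GFP transcript although its label is WT. In chondrocytes eGFP was at 3.63, 143 and 286 CPM, in 2 of 30, 2 of 3 and 32 of 61 cells. After each cell was thinned to 5000 UMIs, eGFP was found in 3.33%, 66.7% and 42.6% of chondrocytes (exact binomial 95% intervals 0.0844% to 17.2%, 9.43% to 99.2% and 30.0% to 55.9%). The thinned share was 1.45%, 43.4% and 43.1% of dermal cells and 0.636%, 1.57% and 4.12% of keratinocytes. tdTomato was scarce in chondrocytes, at 7.27, 0 and 2.77 CPM, and stood at 1007, 805 and 943 CPM in keratinocytes, so a Tomato transcript was counted in both libraries labelled WT as well as in LOF. The labels name mTmG for LOF only. Calls lost without control replicate 2 are named, and the calls of a list without it are given where their total differs by over 1.5 times.

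The genes of the rule describe the cells and carry no test. Col2a1, the main collagen of cartilage, was at 1281, 2394 and 1230 CPM, with a median of 19.5, 27 and 19 UMIs per cell and a range of 10 to 86. Col9a1, a type IX collagen chain, was at 587, 1001 and 521 CPM. Sox9 was at 429, 107 and 519 CPM, and 5 of the 94 cells held none of it. Control replicate 2 was thus highest for both collagens and lowest for Sox9. Acan, which encodes the large proteoglycan aggrecan, was at 74.5, 250.2 and 52.6 CPM, and 50 of 94 cells held a UMI. Matn1, a matrilin of mature cartilage, was nearly absent, with 3, 0 and 5 UMIs in all. In the dermal cells Sox9 was at 24.1, 13.1 and 71.9 CPM and Acan at 0.0211, 0.0323 and 0 CPM. So 4 of the 5 markers were present in most or many of the cells, and Matn1 was found in 5 of 94.

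The Col2a1 limit of the rule divided cells with similar levels of cartilage genes. The 17 chondrocytes with 10 to 12 Col2a1 UMIs had 531 CPM of Col9a3, 386 CPM of Matn4 and 264 CPM of Cytl1, 3 cartilage genes described below. The 24 cells with 7 to 9 Col2a1 UMIs that met the other conditions had 478 CPM of Col9a3, 360 CPM of Matn4 and 313 CPM of Cytl1. These 24 cells were also picked by the partner genes, so part of the likeness follows from that choice. Col1a1 was at 425 CPM in the 17 cells and 626 CPM in the 24. A further 2 cells with 10 or more Col2a1 UMIs failed on the partner genes, and 1 failed on keratins.

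The share of cells that met the rule was 0.430% in control replicate 1 (exact binomial 95% interval 0.291% to 0.614%), 0.0498% in control replicate 2 (0.0103% to 0.145%) and 0.921% in LOF (0.706% to 1.18%). The LOF share was the highest, and the intervals of the 2 control libraries overlapped neither that of LOF nor each other. These intervals cover the counting of cells only and not the spread between libraries, which was wide between the 2 controls. With each cell thinned to 5000 UMIs, 8, 1 and 11 cells met the rule, or 0.123%, 0.0194% and 0.173%, and the intervals of control replicate 1 (0.0531% to 0.242%) and LOF (0.0866% to 0.310%) overlapped. With 2 libraries against 1 the smallest p that an exact permutation test allows is 0.333, and none was made. The labels do not record how much tissue below the skin came with each dissection, and its part in the shares was not tested. At E14.5 the same rule found 1 of 6263, 2 of 5850 and 0 of 8922 cells in control replicate 1, control replicate 2 and LOF. By the limit of 3 counts the 0 allows a share of up to 0.0336%, and its exact binomial interval in the plot of shares reaches 0.0413%.

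**Figure D1:**
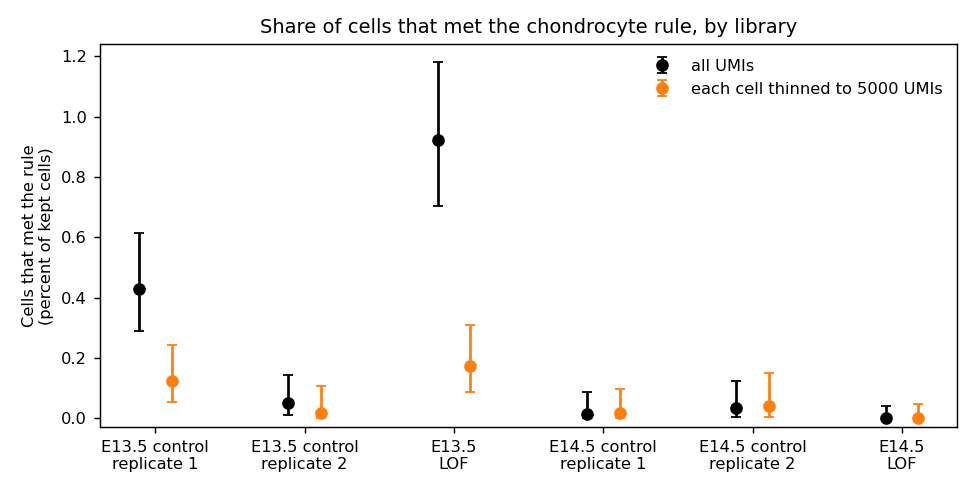
Percent of kept cells that met the rule (y axis) in each of the 6 libraries (x axis), from all UMIs (black) and after thinning each cell to 5000 UMIs (orange), with exact binomial 95% intervals. E13.5 LOF is highest at 0.921% from all UMIs, and after thinning its interval overlaps that of E13.5 control replicate 1. The intervals cover the counting of cells only.

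To see what the cells share beyond the rule, their sums were compared with the sums of 4274, 3554 and 3893 dermal mesenchyme cells, which held at least 3 UMIs of Pdgfra, Twist2 and Lum together and at most 2 of Col2a1. The genes of both cell rules were left out of the counts. Of 13563 other genes tested, 697 were higher in chondrocytes (5.14%) and 1376 were lower (10.1%) at an adjusted p under 0.05 in edgeR's quasi-likelihood test with the library as a block. DESeq2 called 457 genes (3.37%), with 178 higher (1.31%) and 279 lower (2.06%), and 450 of its genes were among those of edgeR. The median log2 fold over all genes tested was -0.15. The cells were picked by cartilage genes, so genes that follow Col2a1 from cell to cell differ in part by that choice. The dermal cells were picked by Pdgfra, Twist2 and Lum, so genes that follow these also differ in part by choice. The test says only that a difference exceeded the spread between libraries. The count was 435 without control replicate 1, 2974 without control replicate 2 and 149 without LOF. Without control replicate 2 it was 1287 higher and 1687 lower of 13809 genes tested, so calls rose over all genes and not only in the lists below.

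Among the cartilage collagens, 5 of 8 tested were higher and 3 lower, in edgeR and in DESeq2 alike, with a median log2 fold of 2.52. Col9a3, which completes the type IX trimer, was at 860, 1751 and 827 CPM in chondrocytes and at 12.2, 7.85 and 16.4 CPM in dermal cells. Every chondrocyte sum lay far above every dermal sum, with a log2 fold of 6.29 ± 0.43 (SE, edgeR adjusted p = 8.9e-46). Col9a2, the remaining type IX chain, was at 412, 465 and 363 CPM against 20.1, 9.34 and 33.9 CPM (log2 fold 4.08). Col11a2, a chain of the type XI collagen that nucleates cartilage fibrils, was at 61.8, 143 and 48.9 CPM against 0.211, 0.129 and 0.329 CPM (log2 fold 7.92). Col11a1 and Col27a1, a fibrillar collagen of cartilage, were higher by 2.83 and 2.21 on the log2 scale. The genes that were lower were Col6a1, Col6a2 and Col6a3, the chains of the microfibrillar type VI collagen, with log2 folds of -2.86, -3.19 and -3.21. Col6a1 was at 30.9, 179 and 27.7 CPM against 249, 186 and 262 CPM, so the 3 cells of control replicate 2 stood beside the dermal level. All 8 calls remained without control replicate 2, while Col27a1 and the 3 type VI chains were lost without control replicate 1 and without LOF.

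Of 24 noncollagenous matrix genes tested, 13 were higher and 2 lower, with a median log2 fold of 2.32. Cytl1, which encodes a secreted cytokine-like protein of cartilage, was at 293, 322 and 726 CPM in chondrocytes and at 0.485, 0.162 and 1.38 CPM in dermal cells. No dermal sum came near a chondrocyte sum, and the log2 fold was 9.28 ± 0.43 (SE, edgeR adjusted p = 1.2e-98). Mia, a small secreted protein that marks cartilage, was at 416, 214 and 325 CPM against 1.44, 0.517 and 2.88 CPM (log2 fold 7.54). Matn4, a matrilin, was at 385, 643 and 462 CPM against 11.3, 3.56 and 18.2 CPM (log2 fold 5.23). Cytl1, Mia and Matn4 were found in 78, 84 and 93 of the 94 cells.

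Hapln1, which links aggrecan to hyaluronan, was at 80.0, 286 and 51.7 CPM against 3.23, 1.81 and 6.39 CPM, and Lect1, which encodes the antiangiogenic protein chondromodulin, at 80.0, 357 and 81.2 CPM against 1.08, 0.743 and 1.98 CPM. Control replicate 2 was highest for both, and their log2 folds were 4.07 and 6.08. The matrix genes Matn3 (10.9, 0 and 14.8 CPM), Chad (14.5, 0 and 19.4 CPM) and Epyc (36.3, 0 and 44.3 CPM) were also higher. They had no UMI in the 3 cells of control replicate 2, whose limit of 107.2 CPM covers those levels. Ctgf, a matricellular growth plate factor, was at 238, 0 and 163 CPM against 3.65, 2.10 and 3.87 CPM, so its count of 0 in control replicate 2 lay below the level of the other libraries by more than that limit. Comp, a matrix protein of cartilage and tendon, had no UMI in any chondrocyte. Dcn, which encodes decorin, was lower, at 136, 679 and 53.5 CPM against 1137, 869 and 1103 CPM. Vcan (log2 fold -0.00), Fn1 (0.00) and Bgn (-0.44) did not pass. All 15 calls remained without control replicate 2, Matn3, Chad, Matn2 and Dcn were lost without control replicate 1, and Epyc was lost as well without LOF.

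**Figure D2:**
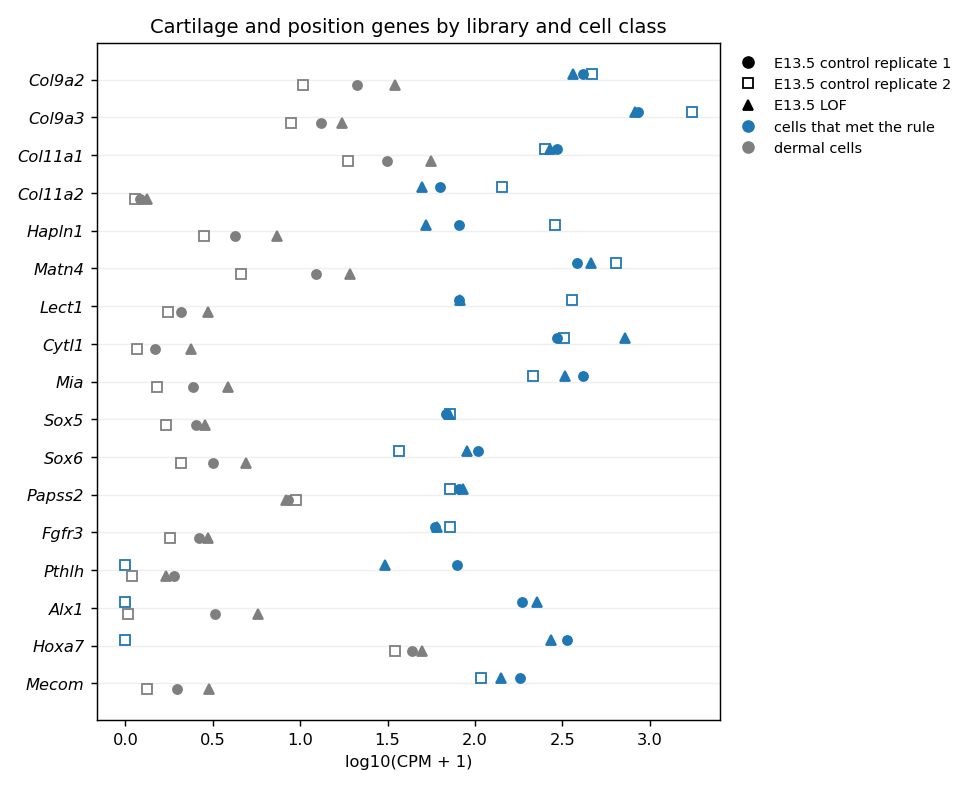
Level on the scale log10(CPM + 1) (x axis) of 17 genes (y axis) in the chondrocyte sums (blue) and dermal sums (gray) of the 3 E13.5 libraries, with a symbol for each library. The blue symbols of Col9a3, Cytl1, Mia and Matn4 all lie to the right of the gray ones, while Pthlh, Alx1 and Hoxa7 are at 0 in the 3 cells of control replicate 2.

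Of the 26 collagen, matrix and transcription factor genes that were higher, 21 have a promoter in RefSeq's mouse table (GRCm38.p6). The 250 bases before each start were searched on both strands for the letters ACAAAG and then for the letters ACAATG, which are motifs of SOX factors, neither of which contains the other. They occurred before a start of 5 of the 21 genes (23.8%), namely Epyc, Chadl, Sox5, Sox6 and Mef2c, and before a start of 28.1% of all 27025 symbols, a share near that of the members. The first occurs in 16.5% and the second in 10.7% of all 32851 promoters. A match describes letters and is no site of binding. The promoters of Cytl1 and Mia are shown because these genes were abundant in chondrocytes and almost absent from dermal cells, and hold no SOX motif in this window. Those of Chadl, which encodes a leucine-rich repeat matrix protein, and of Sox5 are shown because they hold ACAATG, in capitals, beginning 90 and 154 bases before the start. In order they lie at chr5:37735269-37735518 (plus strand), chr7:27181150-27181399 (minus), chr15:81697288-81697537 (minus) and chr6:143947107-143947356 (minus), printed 5′ to 3′.
Cytl1: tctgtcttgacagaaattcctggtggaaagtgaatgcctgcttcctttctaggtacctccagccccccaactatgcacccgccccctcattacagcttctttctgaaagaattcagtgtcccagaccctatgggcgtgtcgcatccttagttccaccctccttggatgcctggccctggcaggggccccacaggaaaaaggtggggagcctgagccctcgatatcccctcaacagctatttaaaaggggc
Mia: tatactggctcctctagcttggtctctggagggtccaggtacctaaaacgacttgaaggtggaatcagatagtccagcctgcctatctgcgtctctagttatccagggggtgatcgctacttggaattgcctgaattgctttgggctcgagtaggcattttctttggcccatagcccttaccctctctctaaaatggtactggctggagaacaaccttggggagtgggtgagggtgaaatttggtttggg
Chadl: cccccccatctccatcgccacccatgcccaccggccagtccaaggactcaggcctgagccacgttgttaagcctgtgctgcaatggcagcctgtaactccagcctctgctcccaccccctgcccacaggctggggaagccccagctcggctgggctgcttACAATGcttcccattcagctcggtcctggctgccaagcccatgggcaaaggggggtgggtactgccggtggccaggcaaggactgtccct
Sox5: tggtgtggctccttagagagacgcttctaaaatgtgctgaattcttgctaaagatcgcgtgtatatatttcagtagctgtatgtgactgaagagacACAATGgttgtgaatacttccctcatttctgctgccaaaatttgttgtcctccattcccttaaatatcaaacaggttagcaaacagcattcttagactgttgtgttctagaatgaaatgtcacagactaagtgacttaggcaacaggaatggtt

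Among transcription factors of chondrogenesis other than Sox9, 8 of 19 tested were higher and 2 lower, with a median log2 fold of 0.61, and DESeq2 called 4 and 1. Sox5 was at 67.2, 71.5 and 70.2 CPM in chondrocytes against 1.54, 0.711 and 1.87 CPM (log2 fold 5.41 ± 0.33, SE, edgeR adjusted p = 1.6e-58). Sox6 was at 104, 35.7 and 89.5 CPM against 2.17, 1.07 and 3.87 CPM (log2 fold 5.02 ± 0.27). The chondrocyte sums of both lay above all dermal sums, but those of control replicate 2 rest on 2 UMIs of Sox5 and 1 of Sox6. Trps1, which encodes a GATA-type repressor of the growth plate, was at 65.4, 71.5 and 69.2 CPM against 10.3, 4.82 and 17.8 CPM. Runx2, which drives hypertrophy and bone, was at 14.5, 0 and 11.1 CPM against 13.1, 12.7 and 4.35 CPM and did not pass. Nfib was lower, at 176, 179 and 180 CPM against 336, 271 and 408 CPM. Without control replicate 1 the calls of Trps1, Runx1, Foxa3, Mef2c and Creb3l2 were lost, and without LOF those of Sox8, Runx1, Foxa3, Mef2c and Creb3l2. Barx2 and Nfib were lost with either, and Sox8 and Barx2 without control replicate 2.

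The sclerotome is the part of the somite that forms vertebrae and ribs. Of 9 of its transcription factors tested, Foxc1, Foxc2 and Uncx were higher and Pax1, Meox1 and Tbx18 lower. Foxc1 was at 74.5, 71.5 and 48.9 CPM against 1.29, 0.0970 and 4.11 CPM (log2 fold 4.77). Pax1, an early sclerotome gene, had no UMI in any chondrocyte and 35, 8.27 and 23.0 CPM in dermal cells, which makes it at least 14.8-fold lower against a limit of 3 UMIs over the chondrocytes of all 3 libraries. Pax9 and Nkx3-2, known partners in early cartilage, had no chondrocyte UMI either, but their dermal levels were at most 1.49 CPM, under what 3 UMIs of all chondrocytes would give. Uncx was lost without control replicate 1, Foxc2 and Uncx without LOF, and Meox1 and Tbx18 without either.

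Of 20 tested genes that build and sulfate the sugar chains of proteoglycans, 12 were higher and 0 lower, with a median log2 fold of 1.12, and DESeq2 called 3 higher. Papss2, which makes the sulfate donor of cartilage, was at 80.0, 71.5 and 84.0 CPM against 7.47, 8.40 and 7.31 CPM. All chondrocyte sums exceeded all dermal sums, with 2 UMIs in control replicate 2, and the log2 fold was 3.47 ± 0.26 (SE, edgeR adjusted p = 7.4e-39). Galnt3 (log2 fold 5.74), which starts O-linked sugar chains, and Chst11 (2.61), a chondroitin sulfotransferase, passed in both tools. Slc26a2, the sulfate transporter, was at 27.3, 0 and 33.2 CPM against 7.62, 5.98 and 8.87 CPM and passed in edgeR only. Without control replicate 1 and without LOF 5 of the 12 calls remained, Papss2 and Chst11 among them, and Galnt3 was lost both times. Of 20 genes of collagen folding and export 3 were higher and 0 lower, near the 15.3% of all genes tested that edgeR called in either direction. Plod2, a lysyl hydroxylase that sets collagen crosslinks, was at 185, 179 and 160 CPM against 24.6, 18.5 and 30.9 CPM (log2 fold 2.67), and Plod1 and Creb3l2 passed by less. Plod2 alone of these was called by DESeq2 and without control replicate 1 or LOF, and without control replicate 2 the list had 6 higher. Serpinh1, the collagen chaperone, was at 1661, 1572 and 1604 CPM against 1647, 1668 and 1563 CPM, ranges that overlapped.

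Signals of the growth plate were present in part. Pthlh, which encodes parathyroid hormone-related protein, was at 78.1, 0 and 29.5 CPM against 0.887, 0.0970 and 0.703 CPM, in 15 of 30, 0 of 3 and 17 of 61 cells (log2 fold 5.97). Ihh, which encodes Indian hedgehog, was at 16.4, 0 and 2.77 CPM, in 4, 0 and 2 cells, against at most 0.0970 CPM (log2 fold 6.41). Ptch1, a hedgehog receptor and target, was at 25.4, 35.7 and 12.9 CPM against 2.55, 1.97 and 2.28 CPM (log2 fold 2.98). All 3 were higher, with edgeR and with DESeq2. Pth1r, the receptor of Pthlh, was lower, at 38.2, 35.7 and 20.3 CPM against 204, 195 and 87.8 CPM (log2 fold -2.26). Gli1, a hedgehog target, did not pass (10.9, 0 and 5.54 CPM against 3.55, 1.42 and 2.99 CPM). The calls of Ihh and Pth1r were lost without control replicate 1 and without LOF.

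Markers of enlarged, mineralizing chondrocytes were absent or scarce. Col10a1, Mmp13, Ibsp, Spp1, Panx3 and Phospho1 had no UMI in any chondrocyte, while Alpl had 2, 0 and 1 and Sp7 had 1, 0 and 2. A total of 0 allows up to 1.81 CPM over the 3 libraries. Of 9 tested genes of the hypertrophy list Ihh and Mef2c were higher, Pth1r was lower and 6 did not pass. Mef2c was at 36.3, 0 and 40.6 CPM against 18.6, 12.8 and 18.0 CPM (log2 fold 1.10), and against all other kept cells its log2 fold was -0.12 (edgeR adjusted p = 0.853). Ihh and Mef2c were both lost without control replicate 1 and without LOF.

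Of 9 tested genes of joint-forming tissue 2 were higher and 5 lower, and DESeq2 called 1 and 4. Gdf5, a growth factor of joint interzones, was at 7.27, 71.5 and 24.9 CPM against 1.75, 1.0 and 3.40 CPM, in 20 of 94 cells (log2 fold 2.90). Osr1 and Osr2, factors of connective tissue and joints, were lower, with Osr1 at 18.2, 143 and 22.2 CPM against 330, 320 and 365 CPM (log2 fold -3.79). The median log2 fold of the list was -2.52, and -1.55 with the gene that had no chondrocyte UMI set at its bound. Gdf5 and Osr2 were lost without LOF, Erg, Wnt9a, Wnt4 and Sfrp2 without LOF or control replicate 1, and Wnt9a without control replicate 2.

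Genes of perichondrium and bone, the sheath around cartilage and the tissue it forms, were lower in 7 of 9 tested and higher in 0, with a median log2 fold of -1.68, and DESeq2 called 5 lower. Col1a1, the main collagen of bone and dermis, was at 425, 2359 and 240 CPM against 2052, 1316 and 2142 CPM, so the groups overlapped through control replicate 2. Its log2 fold was -1.80 ± 0.43 (SE, edgeR adjusted p = 0.00049), and DESeq2 gave an adjusted p of 0.061. Col3a1 was at 425, 1537 and 355 CPM against 1880, 967 and 2375 CPM, with the same overlap. Twist1, a factor of mesenchyme, was at 30.9, 0 and 14.8 CPM against 205, 68.9 and 98.8 CPM (log2 fold -2.72). All 7 calls remained without control replicate 2 and none without control replicate 1 or without LOF. Genes that follow the rule of the dermal cells can be lower by that choice, and against all other kept cells 5 of the 7 calls remained. The spread inside the group was wide: 64 of 94 cells held 5 or fewer Col1a1 UMIs, and 7 of 30, 3 of 3 and 8 of 61 held 10 or more. Some of the latter in control replicate 1 and LOF were possible doublets. Of 8 tendon genes tested Scx, a factor of tendon progenitors, was higher, at 74.5, 0 and 90.5 CPM against 20.5, 12.2 and 32.3 CPM, and Tnmd, Kera and Htra3 were lower. Scx was found after thinning in 33.3% and 31.1% of chondrocytes of control replicate 1 and LOF and in 6.65% and 11.4% of their dermal cells. DESeq2 called none of the 4 tendon genes, and Scx and Kera were lost without control replicate 1 or without LOF, and Tnmd and Htra3 without LOF.

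**Figure D3:**
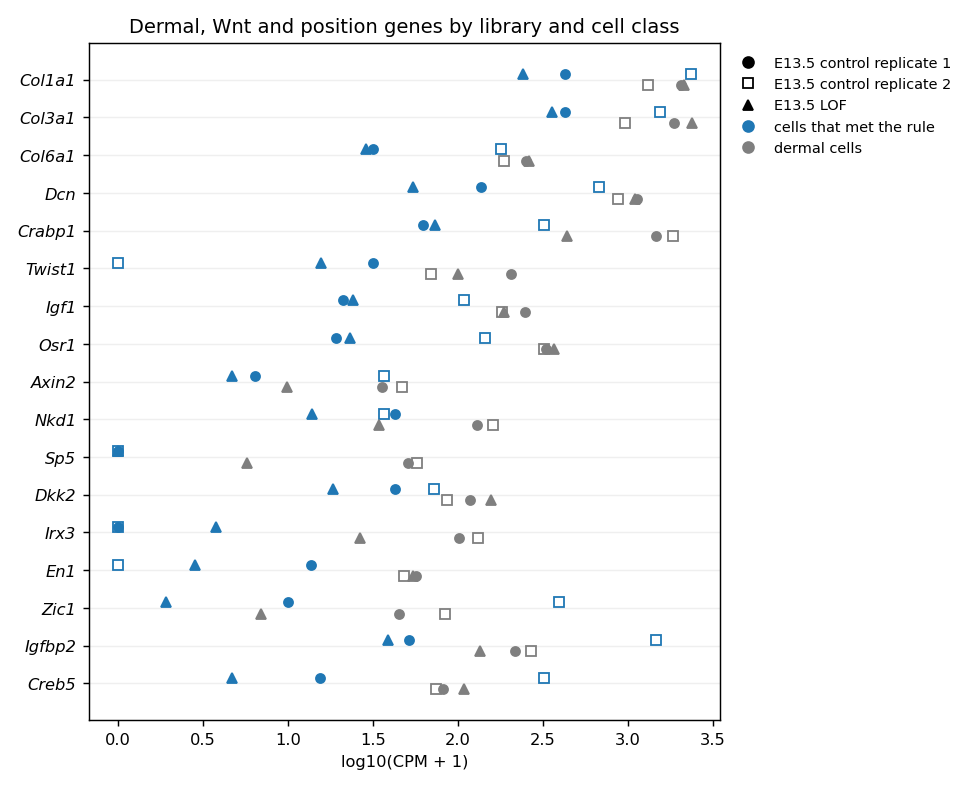
Level on the scale log10(CPM + 1) (x axis) of 17 dermal, Wnt and position genes (y axis) in the chondrocyte sums (blue) and dermal sums (gray) of the 3 E13.5 libraries, with a symbol for each library. Most blue symbols lie to the left of the gray ones, and the open blue squares of control replicate 2, from 3 cells, lie to the right of the other blue symbols for Col1a1, Zic1, Igfbp2 and Creb5.

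In the FGF pathway 6 of 13 tested genes were higher and 3 lower, with a median log2 fold of 0.44, and DESeq2 called 4 and 1. Fgfr3, the receptor that slows growth plate chondrocytes, was at 58.1, 71.5 and 60.0 CPM in chondrocytes against 1.62, 0.808 and 1.98 CPM. The groups stood far apart, with a log2 fold of 5.13 ± 0.34 (SE, edgeR adjusted p = 1.0e-48), but control replicate 2 held 2 UMIs. The receptor genes Fgfrl1 and Fgfr2 were higher by 3.20 and 2.68, and Etv5, a target of FGF signals, was at 81.8, 35.7 and 82.2 CPM against 15.5, 12.8 and 22.2 CPM. Spry2, an inhibitor of the pathway, was lower, at 32.7, 0 and 79.4 CPM against 128, 78.7 and 180 CPM. Fgf18, a ligand of the perichondrium, was lower too, with 1 UMI in the LOF chondrocytes and 16.5, 3.39 and 17.5 CPM in dermal cells. Without LOF only the calls of Fgfr3 and Fgfrl1 remained among the 6, and without control replicate 1 those of Etv4 and Etv5 were lost. Spry1 and Spry2 were lost without either, and Fgf18 without LOF.

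In the BMP and TGF-beta pathways 7 of 26 tested were higher and 2 lower, with a median log2 fold of 0.38. Bmp2 was at 100, 107 and 104 CPM against 26.9, 20.3 and 15.7 CPM (log2 fold 2.37), with no overlap but 3 UMIs in control replicate 2. Bmp5 (72.7, 0 and 39.7 CPM against 6.61, 4.23 and 6.39 CPM) and Nog, the BMP antagonist that cartilage makes (50.9, 0 and 53.5 CPM against 5.26, 3.17 and 3.12 CPM), were higher in both tools. Id1, Id2 and Id3, targets of BMP signals, did not pass, with log2 folds of -0.10, 0.51 and 0.51. Grem1, another antagonist, was lower (1.82, 0 and 0 CPM against 19.2, 16.9 and 9.13 CPM). Without control replicate 1 the calls of Bmp7, Smad6 and Tgfb2 were lost, and without LOF those of Bmp2 and Gdf5 as well. Tgfbr2 was lost without either, and Grem1 without LOF. DESeq2 called 4 higher and 0 lower, with an adjusted p of 0.067 for Grem1.

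Wnt pathway genes were lower in 16 of 31 tested and higher in 4, with a median log2 fold of -1.26, and DESeq2 called 8 and 1. Sp5, a direct target of β-catenin, had no UMI in any chondrocyte and 49.9, 56.2 and 4.74 CPM in dermal cells, which makes it at least 11.4-fold lower. This bound sets the UMIs that chondrocytes would hold at the dermal level of their own library against 3 UMIs, and most of it comes from control replicate 1. Axin2, another target, was at 5.45, 35.7 and 3.69 CPM against 34.9, 46.1 and 8.96 CPM, where the value of control replicate 2 rests on 1 UMI. Nkd1, a feedback inhibitor, was at 41.8, 35.7 and 12.9 CPM against 130, 160 and 33.3 CPM (log2 fold -1.55), so in each library the chondrocytes lay below the dermal cells and in LOF both were lowest. Its value in control replicate 2 also rests on 1 UMI. Lef1, a partner of β-catenin, did not pass (45.4, 0 and 13.8 CPM against 28.4, 36.2 and 5.09 CPM). The 4 higher genes were Lgr4 and Lgr5, receptors that strengthen Wnt signals, and the secreted inhibitors Wif1 and Frzb. Lgr5 was at 18.2, 71.5 and 27.7 CPM against 9.48, 6.17 and 3.01 CPM. All 20 calls remained without control replicate 2. Without control replicate 1 none of the 16 lower calls remained, and without LOF Sp5 alone. Of the 4 higher calls Wif1 and Lgr4 were lost without control replicate 1 and without LOF, and Lgr5 without LOF. The 1 higher call of DESeq2 was Lgr5.

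**Figure D4:**
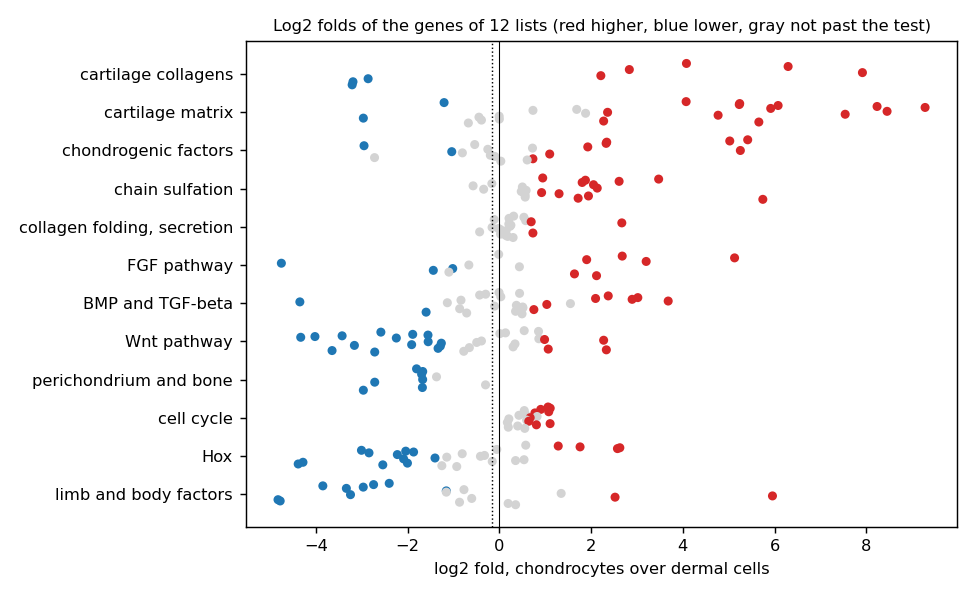
Log2 folds of chondrocytes over dermal cells (x axis) for the tested genes of 12 lists (y axis), red where higher, blue where lower and gray where not past the test, without genes that had no chondrocyte UMI. The dotted line is the median of all genes, -0.15, and the collagen, matrix and sulfation lists have medians to its right (2.52, 2.32 and 1.12) while the Wnt and perichondrium lists have medians to its left (-1.26 and -1.68).

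Cell cycle genes were higher in 9 of 19 tested and lower in 0, with a median log2 fold of 0.64. DESeq2 called 2 higher, Top2a and Rrm2, and without control replicate 2 edgeR called 16 higher and 0 lower. In that setting calls over all genes rose too, to 1287 higher and 1687 lower of 13809, which also bears on the other lists of this paragraph. Mki67, a marker of cycling cells, was at 104, 71.5 and 111 CPM against 58.3, 46.8 and 46.9 CPM, and after thinning it was found in 36.7%, 33.3% and 34.4% of chondrocytes and in 17.5%, 15.1% and 12.9% of dermal cells. Top2a was at 291, 393 and 279 CPM against 150, 142 and 116 CPM (log2 fold 1.11). The chondrocyte sums of both lay above all dermal sums, but Mki67 in control replicate 2 rests on 2 UMIs in 1 of 3 cells. Depth moved with these calls: among cells with at least 10000 UMIs Mki67 and Rrm2 alone of the 9 still passed. No call of the 9 remained without control replicate 1 or without LOF. Of 5 tested inhibitors of the cell cycle 1 was lower, and 2 without control replicate 2. The 1 was Cdkn1a, with 0, 0 and 5.54 CPM against 10.8, 8.50 and 32 CPM. Of 24 genes of hypoxia and glycolysis 4 were higher and 1 lower in edgeR and none in DESeq2, and 11 were higher and 2 lower without control replicate 2. Over all genes tested edgeR called 15.3% in either direction. The counts of the inhibitors and of hypoxia and glycolysis are not read as results about these lists. Pfkl, a glycolytic enzyme, was at 134, 107 and 79.4 CPM against 59.9, 57.7 and 41.9 CPM. Of 17 genes of IGF signalling and fetal growth edgeR called 0 higher and 5 lower, and 2 and 8 without control replicate 2. DESeq2 called 0 and 5, which held 4 of the edgeR calls and not that of Plagl1. Igfbp3 was at 3.63, 0 and 5.54 CPM against 134, 33.8 and 158 CPM (log2 fold -4.89) and Igf1 at 20.0, 107 and 23.1 CPM against 246, 182 and 186 CPM (log2 fold -3.06). Igfbp3 alone of the 5 edgeR calls remained without control replicate 1 and without LOF, and Cdkn1a and Pfkl were lost without either. Igf2 did not pass, at 549, 500 and 472 CPM against 542, 348 and 589 CPM.

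Genes of body position set the chondrocytes apart from dermis. Alx1, a homeobox gene of skeletal mesenchyme, was at 185, 0 and 224 CPM against 2.26, 0.0323 and 4.72 CPM, in 23 of 30, 0 of 3 and 53 of 61 cells (log2 fold 5.95 ± 0.25, SE, edgeR adjusted p = 1.0e-123). Of 21 tested limb and body factors 2 were higher, Alx1 among them, and 10 were lower. En1, a homeobox gene of trunk dermis, was at 12.7, 0 and 1.85 CPM against 55.5, 47.0 and 53.2 CPM, Tbx15 at 3.63, 0 and 3.69 CPM against 63.0, 63.2 and 48.0 CPM, and Irx3 at 0, 0 and 2.77 CPM against 100, 130 and 25.5 CPM. The list's median log2 fold was -2.40, and -0.87 with genes that had no chondrocyte UMI at their bound. Alx1 remained without each library in turn, DESeq2 called 2 and 7, and 4 of the 10 lower calls remained without control replicate 1 and 4 without LOF, and Alx4 was lost without control replicate 2.

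Hox genes, which mark position along the body, were higher in 4 of 30 tested and lower in 12, with a median log2 fold of -1.33 (-0.75 with genes without a chondrocyte UMI at their bound). Hoxa7 was at 334, 0 and 271 CPM against 42.5, 33.8 and 48.8 CPM, in 26 of 30, 0 of 3 and 57 of 61 cells (log2 fold 2.58). Hoxa6, with 5.45, 0 and 2.77 CPM in chondrocytes, Hoxa5 and Hoxa3 were higher by 2.63, 1.76 and 1.28. Hoxc10 was lower, at 3.63, 0 and 1.85 CPM against 50.7, 72.3 and 46.2 CPM (log2 fold -4.28). Hoxa10 was also lower, with 0, 0 and 6.46 CPM against 26.9, 18.2 and 38.7 CPM. Hoxc6 and Hoxc9 did not pass, with log2 folds of 0.54 and -0.15. DESeq2 called 1 higher and 3 lower. Without LOF none of the 4 higher calls and 1 of the 12 lower ones remained, and without control replicate 1 it was 1 and 3. Hoxa6, Hoxb6 and Hoxd1 were lost without control replicate 2.

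Outside the lists, the 12 largest rises among well-expressed genes that moved the same way in all 3 libraries were led by Mecom, which encodes a zinc finger transcription factor. Mecom was at 180, 107 and 139 CPM against 0.971, 0.323 and 2.0 CPM, in 28 of 30, 2 of 3 and 49 of 61 cells (log2 fold 6.82 ± 0.26, SE, edgeR adjusted p = 1.0e-140). The chondrocyte sums lay far above all dermal sums, with 3 UMIs in control replicate 2. Wwp2, a ubiquitin ligase gene that hosts a microRNA of cartilage in an intron, was at 287, 107 and 266 CPM against 11.8, 9.18 and 15.5 CPM (log2 fold 4.30). S100b, a calcium-binding protein of cartilage and glia, was at 164, 71.5 and 219 CPM against 7.64, 5.40 and 14.5 CPM (log2 fold 4.14). Asb4 was at 429, 35.7 and 409 CPM against 12.2, 4.82 and 45.2 CPM, so the single UMI of control replicate 2 fell inside the dermal range. Sparcl1, Mbnl1, Deb1, Acot1, Crispld1, Psat1 and Ldhb followed with log2 folds of 1.70 to 2.55. The 12 largest falls included Tagln, Rspo1, Irx1, Thy1, Kcnk2, Acta2, Wnt2, Map1b, Cd34, Emilin2 and Adam33, with log2 folds of -5.27 to -3.83. Acta2, the smooth muscle actin gene, was at 9.09, 0 and 22.2 CPM against 215, 246 and 377 CPM. Rspo1, which encodes an agonist of Wnt signals, was at 1.82, 0 and 3.69 CPM against 125, 60.9 and 109 CPM.

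The sum of the 3 cells of control replicate 2 differed from the sums of the other E13.5 libraries in several genes. Col1a1, at 2359 CPM, did not separate the cells 1 by 1. In control replicate 1 and LOF 7 of 30 and 8 of 61 cells also held 10 or more Col1a1 UMIs, though some were deeper cells or possible doublets. A possible doublet of LOF held 30 of 12130 UMIs, and a LOF cell not marked as a doublet held 16 of 8077. The cells of control replicate 2 held 10 of 5958, 41 of 10649 and 15 of 11376. Beside their cartilage collagens the 3 cells held 1465 CPM of the growth factor binder Igfbp2 (50.9 and 37.9 CPM in control replicate 1 and LOF). They also held 536 CPM of Fmod, a proteoglycan of tendon and cartilage (21.8 and 37.9 CPM), and 643 CPM of Mgp, an inhibitor of mineralization (111 and 28.6 CPM). Zic1, a gene of dorsal mesenchyme, was at 9.09, 393 and 0.923 CPM, with 5, 11 and 1 UMIs and a UMI in 3 of 30, 3 of 3 and 1 of 61 cells. Creb5, a transcription factor gene, was at 14.5, 322 and 3.69 CPM. Alx1, Hoxa7 and Ctgf were at 0 there. The summed level of 12 genes of dissociation stress was 763, 2394 and 1174 CPM in chondrocytes and 1380, 1344 and 2455 CPM in dermal cells, and its part in these differences was not tested.

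Markers of other cell types were measured in the same sums. Keratinocyte markers summed to 14.5, 0 and 20.3 CPM in chondrocytes and 21.3, 20.3 and 30.4 CPM in dermal cells, and muscle markers to 40, 35.7 and 36.9 CPM against 202, 103 and 175 CPM. Endothelial markers summed to 34.5, 35.7 and 43.4 CPM against 31.1, 34.3 and 39.7 CPM, nearly all of it Egfl7, which was higher in chondrocytes (log2 fold 0.81, edgeR adjusted p = 0.039) but not with DESeq2. Pecam1, Cdh1, Esrp1 and Myh3 had no chondrocyte UMI, but their dermal levels were too low for that to show a difference. Pericyte markers summed to 27.3, 142.9 and 21.2 CPM against 37.3, 25.6 and 39.0 CPM, and Cspg4, a proteoglycan gene of pericytes and other mesenchyme, was higher in both tools (23.6, 71.5 and 20.3 CPM against 4.77, 3.65 and 8.02 CPM). Macrophage markers summed to 7.27, 0 and 65.5 CPM against 27.7, 47.4 and 33.0 CPM, above the dermal level in LOF, where 1 cell held 3 or more of their UMIs. Schwann cell markers summed to 52.7, 0 and 8.31 CPM against 17.1, 9.89 and 9.90 CPM, with 14 Fabp7 UMIs in 1 cell of control replicate 1. Haemoglobin transcripts, which come from red cells, summed to 72.7, 250.2 and 403 CPM in chondrocytes against 543, 957 and 1545 CPM in dermal cells, so both classes were highest in LOF.

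The comparison of LOF with control, which differ in genotype, mouse line and drug, asks whether the chondrocytes themselves differed. Of 6865 genes tested, 1 was called (0.0146%), with 1 higher and 0 lower. At an unadjusted p under 0.05 it was 69 genes, and DESeq2 called 0, with 10 at an unadjusted p under 0.05. The comparison sets 1 library against 2, of which one is 3 cells, and assumes that the single LOF library varies as the controls do. On simulated data of this size it recovered 0% of genes changed 2- or 4-fold and 40% of those changed 8-fold, so changes of 4-fold or less were not detectable. Ctnnb1, which encodes β-catenin, was at 329, 143 and 402 CPM in chondrocytes and 195, 182 and 247 CPM in dermal cells, but 3′ end counts do not check the loss of floxed exons. Pdgfra was at 30.9, 35.7 and 85.8 CPM.

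The gene called was Pnlip, which encodes pancreatic lipase. It was at 3.63, 0 and 124 CPM, with 2, 0 and 134 UMIs, in 2 of 30, 0 of 3 and 22 of 61 cells and with up to 38 UMIs in 1 cell. Its log2 fold was 5.15 ± 1.06 (SE, edgeR adjusted p = 0.0089). After thinning it was found in 6.67%, 0% and 23.0% of chondrocytes and in 0.050%, 0.0323% and 0.186% of dermal cells. Among LOF chondrocytes with eGFP 12 of 32 held a Pnlip UMI, and among those without 10 of 29. The call was lost with no filter on low counts (adjusted p = 0.832), among cells with at least 20 Col2a1 UMIs (0.804), without possible doublets (0.13) and with DESeq2 (1). The 0 in control replicate 2 rests on 3 cells, with a limit of 107.2 CPM.

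Other genes did not pass. Esr1 is the estrogen receptor gene, a part of which the CreER transgene also holds, and whether transgene transcripts were counted as Esr1 cannot be told from the matrices. It was at 0, 0 and 47.1 CPM, with 51 UMIs in 30 of 61 LOF chondrocytes, at least 9.08-fold higher than the limit over both controls (edgeR adjusted p = 0.0504). In dermal cells Esr1 was at 3.42, 1.87 and 73.6 CPM at E13.5, and at 4.33, 2.19 and 54.8 CPM at E14.5, so LOF was highest in both classes at E13.5 and in dermal cells at E14.5. It was found in 16 of 32 LOF chondrocytes with eGFP and 14 of 29 without. Lyve1, a gene of lymphatic vessels and macrophages, had 46 UMIs in LOF and none in the controls, but 45 of them lay in 1 cell. Nov, a matricellular gene, was at 30.9, 0 and 0 CPM (adjusted p = 0.0504), and Zic1 had an adjusted p of 0.056. The cartilage genes Col9a3, Matn4, Sox5, Sox6 and Fgfr3 had log2 folds of LOF over control of -0.30, 0.18, 0.18, 0.15 and 0.12, each with an adjusted p of 0.999. Cytl1 was at 726 CPM in LOF against 293 and 322 CPM (log2 fold 1.48) and 3110079O15Rik, a proteoglycan gene of cartilage, at 12.9 CPM against 80.0 and 35.7 CPM (log2 fold -2.36), both also at 0.999.

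**Figure D5:**
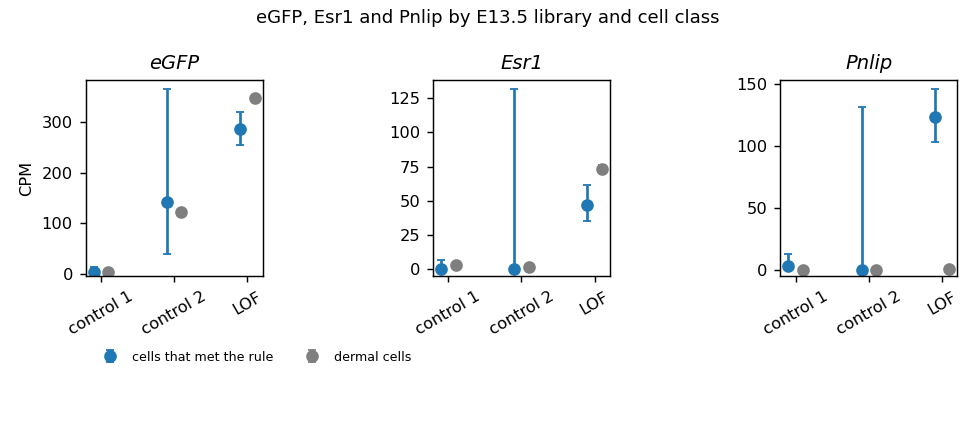
CPM (y axis) of eGFP, Esr1 and Pnlip in the 3 E13.5 libraries (x axis) in chondrocyte sums (blue) and dermal sums (gray), with exact Poisson 95% intervals that cover counting error only. eGFP is above 100 CPM in control replicate 2 as well as in LOF, Esr1 is raised in both classes of LOF, and Pnlip is at 124 CPM in LOF chondrocytes, while the widest intervals are those of the 3 cells of control replicate 2.

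The cells that met the rule at E14.5 were 3, of which the 1 of control replicate 1 was a possible doublet, and no test was made on them. The 1 cell of control replicate 1 and the 2 of control replicate 2 held 3589 and 4579 CPM of Col2a1, 2692 and 2394 CPM of Col9a3, and 2131 and 3226 CPM of Cytl1. Acan was at 561 and 312 CPM and Lect1 at 785 and 1145 CPM. All 5 values lay above those of both larger E13.5 sums, from control replicate 1 and LOF. Col2a1 and Acan are genes of the rule, and these cells were shallower, with 8915 UMIs and a median of 9608.5. A fixed number of Col2a1 UMIs then asks for a higher level, so no difference between stages can be read from these values. Alx1 was at 0 and 208 CPM. A count of 0 allows up to 336.5 and 156.1 CPM in these sums, so the lack of Mecom and Col10a1 UMIs was within the limit of the depth.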

How the data were processed

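The submitters' processing notes name Cell Ranger, Seurat and the builds mm10 and GRCm38, with no versions. The deposited matrices hold UMI counts per gene and cell barcode, not normalized, in 6 libraries. How barcodes were called as cells is not given in the sources used here. Replicates were numbered by accession order, and nothing says how the 2 control pools relate.

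Chondrocytes, dermal cells (Pdgfra, Twist2 and Lum at least 3 UMIs together, Col2a1 at most 2) and keratinocytes (Krt5 and Krt14 at least 10) were summed per library with Python 3.11.15. Sums were tested with edgeR 4.0.16 (TMM, filterByExpr, robust quasi-likelihood, Benjamini-Hochberg over all genes tested). The comparison of chondrocytes with dermal cells had the library as a block, because both classes come from the same pool of embryos (residual degrees of freedom 2). The genotype comparison had 1. DESeq2 1.42.0 was the alternative. Doublets were marked and kept, and left out as an alternative. On simulated data for 13572 genes the first test recovered 24.5%, 65.0% and 89.0% of genes changed 2-, 4- and 8-fold.

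The members, lists and naming rule were chosen with earlier results of these data known. Genes were named by list, then the 12 largest rises and falls outside the lists with mean log2 CPM at least 5 and 1 direction in all libraries. Genes of control replicate 2 and those near the threshold between LOF and control were chosen after their values were seen. Thinning used 5000 UMIs, which leaves out shallower cells (277, 459 and 137 dermal cells and 0 chondrocytes). A few genes that these rules name are not reported here.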

Additional observations from a re-analysis of the deposited data

Results flagged for a closer look

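Hoxc8 lay on opposite sides of the dermal level in the control libraries and in the single LOF library. In chondrocytes it was at 144, 107 and 203 CPM in control replicate 1, control replicate 2 and LOF, and in dermal cells at 149, 139 and 113 CPM, so it lay below the dermal level in both controls and above it in LOF. eGFP did the opposite, at 3.63, 143 and 286 CPM in chondrocytes and 3.06, 123 and 348 CPM in dermal cells. The control side is thin: 107 CPM in control replicate 2 equals 3 UMIs, and eGFP had 2 and 4 chondrocyte UMIs in the controls. Neither gene passed the test of chondrocytes against dermal cells, and the difference between libraries was not tested.

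The dermal cells of E14.5 control replicate 2, a library labelled WT, held 88.0 CPM of eGFP, against 5.55 CPM in E14.5 control replicate 1.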

How the results depend on the processing

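For chondrocytes against dermal cells, the 2073 calls became 457 with DESeq2, 1367 among cells with at least 20 Col2a1 UMIs, and 149 to 2974 with 1 library left out. Without the replicate block, the pairing of both classes within a library, it was 1106. Genes called with DESeq2 size factors, without a filter, with a mitochondrial limit of 5%, without possible doublets or against all other kept cells numbered within 1.5 times the first count, and in cells of at least 10000 UMIs, a setting chosen after seeing the data, 1777. Mef2c turned from 1.10 to -0.12 against all other kept cells, and the cause was not tested. For LOF against control the 1 call became 0 without a filter, with DESeq2, at 20 Col2a1 UMIs and without possible doublets, and 6 at 5% mitochondrial UMIs. Without either control replicate that comparison has values only.

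With Col2a1 limits of 5 and 20 UMIs and after thinning, the share was 0.775%, 0.215% and 0.123% in control replicate 1 and 1.31%, 0.423% and 0.173% in LOF. Unthinned, Sox6 was found in 70.0% and 59.0% and Scx in 56.7% and 70.5% of cells of those libraries. Col9a3 in LOF was at 1020 CPM at 20 Col2a1 UMIs and 944 CPM without possible doublets. Col1a1 under these settings was at 488 and 304 CPM in control replicate 1 and 179 and 200 CPM in LOF, and at 3070 CPM in control replicate 2 under the first. The 3 cells of control replicate 2 limit what any comparison can show.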
